A study of Mus musculus with 4 samples.

Results

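The genes described here encode the surface machinery of T cells and 1 cytotoxic granule protein, and they were followed across brain slices of mice with a focal cortical injury. They are the CD3 chains Cd3e, Cd3d and Cd3g, the T cell receptor constant regions Trac and Trbc2, the co-receptors Cd4, Cd8a and Cd8b1, the adhesion receptor Cd2 and the granule protein gene Nkg7. These 10 genes of the 32285 in the files were named as a list, with earlier results of these data known. Visium capture areas, which are glass squares with barcoded spots that bind the polyadenylated RNA of a tissue slice, gave counts of unique molecular identifiers (UMIs, 1 per captured molecule) for every gene and spot. The study asked how brain fibroblasts and immune cells interact after injury, and for these genes that question becomes where in the slice and when after injury lymphocyte transcripts were found.

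The 4 capture areas held 2 separate pieces of brain each, so that there were 8 slices, each from another mouse. Injured mice had a photothrombotic (PT) injury, in which light shone through the skull over the somatosensory cortex activates the dye Rose Bengal and clots the vessels below. One area held a slice of a wild-type (WT) mouse at rest, with no injury, and a slice of a WT mouse 2 days after injury (2 dpi). One area held 2 slices of WT mice at 7 dpi and one area 2 slices of WT mice at 21 dpi. A further area came from 2 mice labelled Cthrc1(creER); R26(DTA) and taken at 21 dpi, called deleter mice here, in which tamoxifen lets a Cre recombinase under the control of Cthrc1, a gene of activated fibroblasts, switch on a toxin gene from the Rosa26 locus. The authors set these 2 mice aside because they could not detect the deletion, so they are treated here as a separate group at 21 dpi and not as animals without such cells. The labels do not say which piece of the first area is the uninjured one, and the piece with 1017 spots was taken as rest and the piece with 1726 spots as 2 dpi from the outlines of the tissue, not from expression. Slice numbers within an area are names only.

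A T cell recognizes its target with an antigen receptor made of an alpha and a beta chain, whose constant parts are encoded by Trac and by Trbc1 or Trbc2. The receptor signals through the CD3 chains that sit beside it in the membrane. CD4 marks helper T cells and binds class II molecules, while CD8, a pair of the Cd8a and Cd8b1 products on most cytotoxic T cells, binds class I molecules. NKG7 is a membrane protein of cytotoxic granules in natural killer cells and cytotoxic T cells. T cells are scarce in the healthy brain and enter it after injury, where they can stay for long periods.

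The tissue spots of a slice held between 11332780 and 23677298 UMIs, with medians from 12447 to 16158 UMIs per spot in 7 of the slices and 2633.5 at 2 dpi. Spots with at least 5 Col1a1 UMIs per 10000 were called fibrotic, since Col1a1 encodes a chain of the collagen that fibroblasts deposit, and spots with 0 Col1a1 UMIs were called Col1a1-free. There were 3 fibrotic spots at rest, 26 at 2 dpi, 112 and 392 at 7 dpi, 170 and 203 in the WT slices at 21 dpi and 193 and 274 in the deleter slices. The paper places fibroblasts at the borders of the uninjured brain. The fibrotic class can thus hold such border tissue as well as scar, and these were not separated. At 2 dpi its spots had a median of 1309 UMIs, where 1 Col1a1 UMI passes the limit. Fibrotic spots of slice 1 at 7 dpi were shallow, with a median of 4923.5 UMIs against 9206.5 in slice 2 and 10828 to 13879 at 21 dpi. All 6 fibroblast markers of the list used were called higher in fibrotic spots, where 29.8% of all genes were. Col1a1 is 1 of the 6 and defines the spot classes, so its rise was fixed in advance. All 5 neuron markers were called lower, where 30.3% of all genes were. A spot covers several cells, so a lower count can mean fewer T cells or less RNA in each, and the data cannot tell these apart. Time point and capture area coincide and cannot be told apart either, and p-values rest on 2 slices per group. The slices at 7 dpi also held 1597 and 1281 UMIs of the X-inactivation gene Xist, against 4 and 1 in the WT slices at 21 dpi, so their mice differed in sex genes too. In the deleter area, slice 1 held 1033 Xist UMIs and slice 2 held 19.

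Over whole slices, all 10 genes together gave 5416 UMIs, and 71.3% of them came from a single gene, Trbc2. Its counts, in the order rest, 2 dpi, 7 dpi (slices 1 and 2), 21 dpi (slices 1 and 2) and deleter (slices 1 and 2), which is kept below, were 779, 344, 167, 269, 472, 593, 581 and 658. Cd4 gave a further 472 UMIs, or 8.71%. The other 8 genes gave 1081 UMIs between them. Trbc2 and Cd4 followed other parts of the tissue than the rest, as described below, so the summed level of the other 8 genes was added after the values had been seen and is given as a description only.

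The CD3 chains were nearly absent without injury. Cd3d had 0, 0, 14, 7, 43, 28, 53 and 24 UMIs, and Cd3g had 2, 1, 18, 5, 36, 24, 78 and 44. Cd3e was the sparsest of the 10 genes, with 0, 1, 0, 0, 6, 4, 22 and 9 UMIs. The first 2 slices thus held 4 CD3 UMIs in all, and a count of 0 in the resting slice allows up to 0.00183 UMIs per 10000. At 7 dpi Cd3d and Cd3g were present in both slices while Cd3e had no UMI in either. Cd3d and Cd3g lie head to head on chromosome 9 of GRCm38, Cd3g on the minus strand at chr9:44969572-44980431 and Cd3d on the plus strand at chr9:44981786-44987339. Cd3e lies next to them on the minus strand at chr9:44998740-45009627 and overlaps the predicted genes Gm48719 and Gm48720, so reads there could be shared.

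Trac (chr14:54220521-54224206, plus strand), the constant region of the receptor's alpha chain, had 5, 8, 17, 14, 24, 19, 58 and 42 UMIs. It was the only gene beside Trbc2 and Cd4 with at least 5 UMIs in the slice at rest. Trbc1 (chr6:41538218-41539881, plus strand), the sister of Trbc2 and not one of the 10 genes, had 2, 3, 10, 4, 27, 34, 51 and 42 UMIs. Like the CD3 chains, and unlike Trbc2, it had few UMIs at rest and at 2 dpi.

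The CD8 chains had few UMIs at rest, at 2 dpi and at 7 dpi. Cd8a (chr6:71373427-71379173, plus strand) had 2, 0, 2, 3, 29, 13, 32 and 11 UMIs, and its partner Cd8b1 (chr6:71322788-71337494, plus strand) had 2, 1, 2, 6, 19, 14, 22 and 15. No slice at rest, 2 dpi or 7 dpi had more than 3 Cd8a UMIs, and every slice at 21 dpi had at least 11. Cd4 (chr6:124864692-124888221, minus strand) had 7, 61, 16, 11, 72, 31, 53 and 221 UMIs, and the slice at 2 dpi held more of it than both slices at 7 dpi together. Cd2 (chr3:101275899-101287939, minus strand), which lets T and natural killer cells adhere to partner cells, had 1, 3, 5, 6, 21, 10, 19 and 17. Nkg7 (chr7:43437073-43438249, plus strand) had 0, 5, 13, 6, 40, 36, 72 and 48. The UMIs were spread thinly over the spots, as the 43 Cd3d UMIs of slice 1 at 21 dpi lay in 34 spots and its 40 Nkg7 UMIs in 36.

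**Figure D1:**
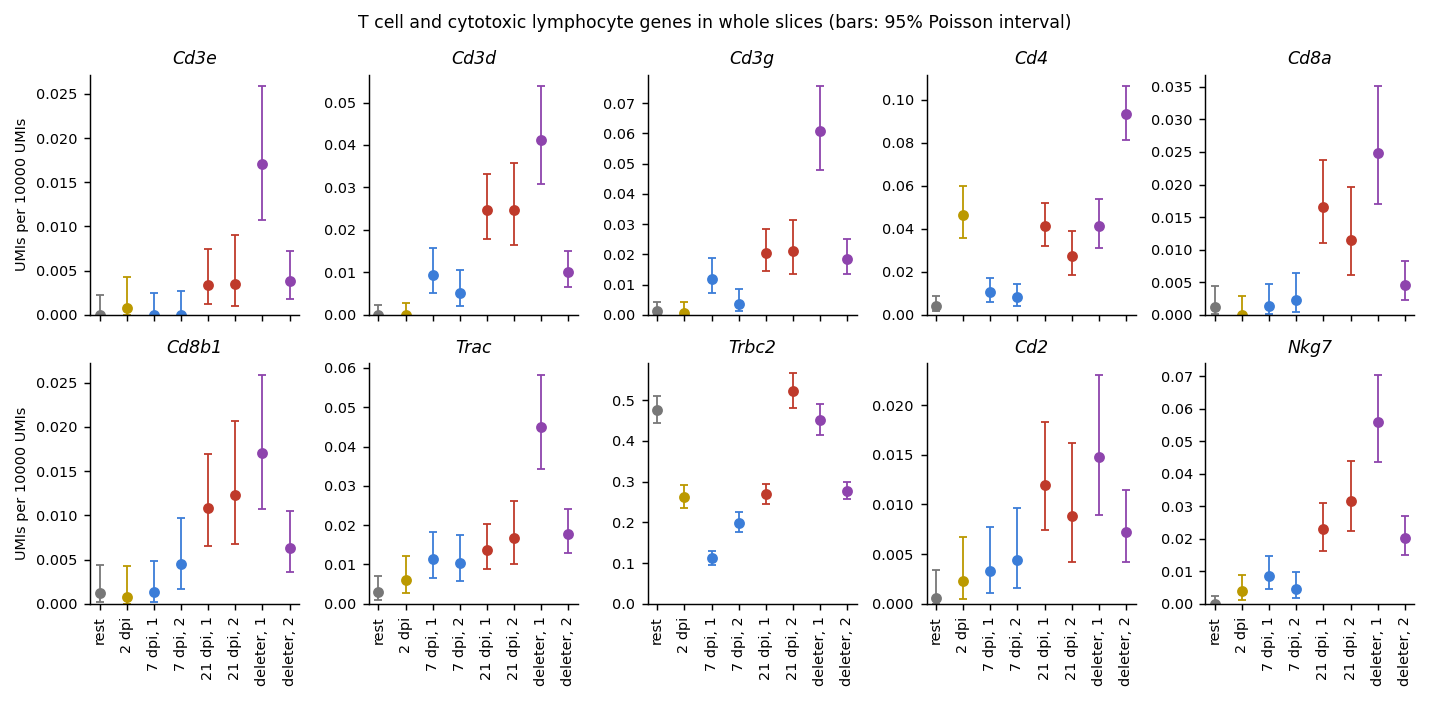
Level of each of the 10 genes over all tissue spots of a slice, in UMIs per 10000 UMIs, for the 8 slices on the horizontal axis, with exact 95% Poisson intervals that cover counting error only. Cd3d, Cd8a and Nkg7 were near 0 at rest and 2 dpi and higher in all 4 slices at 21 dpi, while Trbc2 was as high at rest (0.476) as in slice 2 at 21 dpi (0.523).

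Per 10000 UMIs, the 8 genes without Trbc2 and Cd4 stood at 0.00734 at rest (exact 95% Poisson interval 0.00379 to 0.0128) and 0.0145 at 2 dpi (0.00874 to 0.0227). They reached 0.0473 and 0.0348 at 7 dpi, 0.125 and 0.131 in the WT slices at 21 dpi, and 0.277 and 0.0887 in the deleter slices. The intervals at rest and 2 dpi overlapped, both lay below the 7 dpi values, and every slice at 21 dpi lay above both slices at 7 dpi. How many of all genes had slices in such an order was not counted, so nothing is read from it. Whole-slice UMIs of the WT slices at 21 dpi were compared with those at 7 dpi by edgeR's quasi-likelihood test. All 10 genes had log2 fold changes above 0, from 0.43 for Trac to 5.43 for Cd3e, but none passed an adjusted p of 0.05. The background was as empty, with 0% of 18592 genes called higher and 0% called lower. At an unadjusted p under 0.05 edgeR gave 2154 genes, 7 of the 10 among them, and DESeq2 called 341 genes, none of the 10. The lowest adjusted p among the 10 was that of Cd4, 0.26 (log2 fold change 1.83 ± 0.50 SE).

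The 3 fibrotic spots at rest and the 26 at 2 dpi held no UMI of any of the 10 genes. They held only 22228 and 56316 UMIs in all, so these counts of 0 cannot show absence. For Cd4 at rest, the exact interval reached 1.66 UMIs per 10000. The fibrotic and the Col1a1-free spots of the same slice were compared in the 6 slices at 7 and 21 dpi, with the slice as a block. Averaged over the 3 groups, 6 of the 10 genes were called higher in fibrotic spots, where 29.8% of all 17643 genes were called higher. Trbc2 was called lower, as were 30.3% of all genes. The median log2 fold change of the 10 genes was 2.72 and that of all genes -0.04. The first of these rests in part on the Cd3e value, which could not be estimated, as given below.

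Cd3d had 1, 5, 23, 23, 23 and 20 UMIs in fibrotic spots of the 6 slices, from 7 dpi to deleter, and 2, 0, 5, 0, 4 and 2 in Col1a1-free spots. Cd3g had 2, 5, 14, 19, 32 and 31 UMIs in fibrotic spots and 7, 0, 3, 1, 2 and 8 in Col1a1-free spots. Both were higher per 10000 UMIs in the fibrotic spots of all 6 slices, also in slice 1 at 7 dpi, whose fibrotic spots held only 5.64% of its UMIs. The log2 fold changes were 3.70 for Cd3d (standard error 0.59, edgeR adjusted p = 1.7e-05) and 3.27 for Cd3g (standard error 0.49, edgeR adjusted p = 7.95e-06). Cd3e had 25 UMIs in fibrotic and 3 in Col1a1-free spots, all at 21 dpi, so the average could not be estimated for it.

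Trac had 1, 8, 11, 11, 28 and 19 UMIs in fibrotic spots and 8, 3, 2, 3, 5 and 9 in Col1a1-free spots, with a log2 fold change of 2.23 ± 0.44 (SE, edgeR adjusted p = 0.0002). Nkg7 had 1, 5, 18, 29, 26 and 34 against 4, 1, 5, 1, 5 and 6, with a log2 fold change of 3.02 ± 0.48 (SE, edgeR adjusted p = 1.6e-05). Both were higher per 10000 in the fibrotic spots of all 6 slices. Cd2 had 0, 3, 12, 9, 6 and 9 against 1, 2, 2, 0, 0 and 2, with a log2 fold change of 2.90 ± 0.77 (SE, edgeR adjusted p = 0.0027). It was higher in fibrotic spots in 5 of the 6 slices, the exception being slice 1 at 7 dpi with no Cd2 UMI there.

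Of the CD8 chains, 1 passed the test. Cd8b1 had 0, 6, 6, 11, 5 and 10 UMIs in fibrotic spots and 0, 0, 3, 0, 1 and 1 in Col1a1-free spots, with a log2 fold change of 3.89 ± 0.83 (SE, edgeR adjusted p = 0.00044). Cd8a had 1, 0, 16, 11, 14 and 7 against 1, 2, 4, 0, 6 and 2, with a log2 fold change of 1.98 ± 1.05 (SE, edgeR adjusted p = 0.11). Both leaned to fibrotic spots in 5 of 6 slices. In slice 2 at 7 dpi both Cd8a UMIs of these classes were in Col1a1-free spots, and without that slice its log2 fold change was 3.07 (edgeR adjusted p = 0.032). The genes called higher without slice 2 at 7 dpi were 4, Cd3d, Cd3g, Cd8a and Nkg7.

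Cd4 and Trbc2 went another way. Cd4 had 1, 9, 5, 4, 14 and 14 UMIs in fibrotic spots and 8, 2, 41, 8, 21 and 72 in Col1a1-free spots, a log2 fold change of -0.11 ± 0.40 (SE, edgeR adjusted p = 0.84). Trbc2 had 2, 42, 32, 57, 69 and 66 against 68, 99, 290, 215, 225 and 295. It was lower per 10000 in the fibrotic spots of all 6 slices, and fell by 1.31 on the log2 scale (standard error 0.13, edgeR adjusted p = 3.1e-08). Trbc1, in contrast, had 1, 4, 12, 31, 25 and 27 UMIs in fibrotic spots against 2, 0, 2, 1, 3 and 3, with a log2 fold change of 3.80 ± 0.59 (SE, edgeR adjusted p = 1.1e-05).

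**Figure D2:**
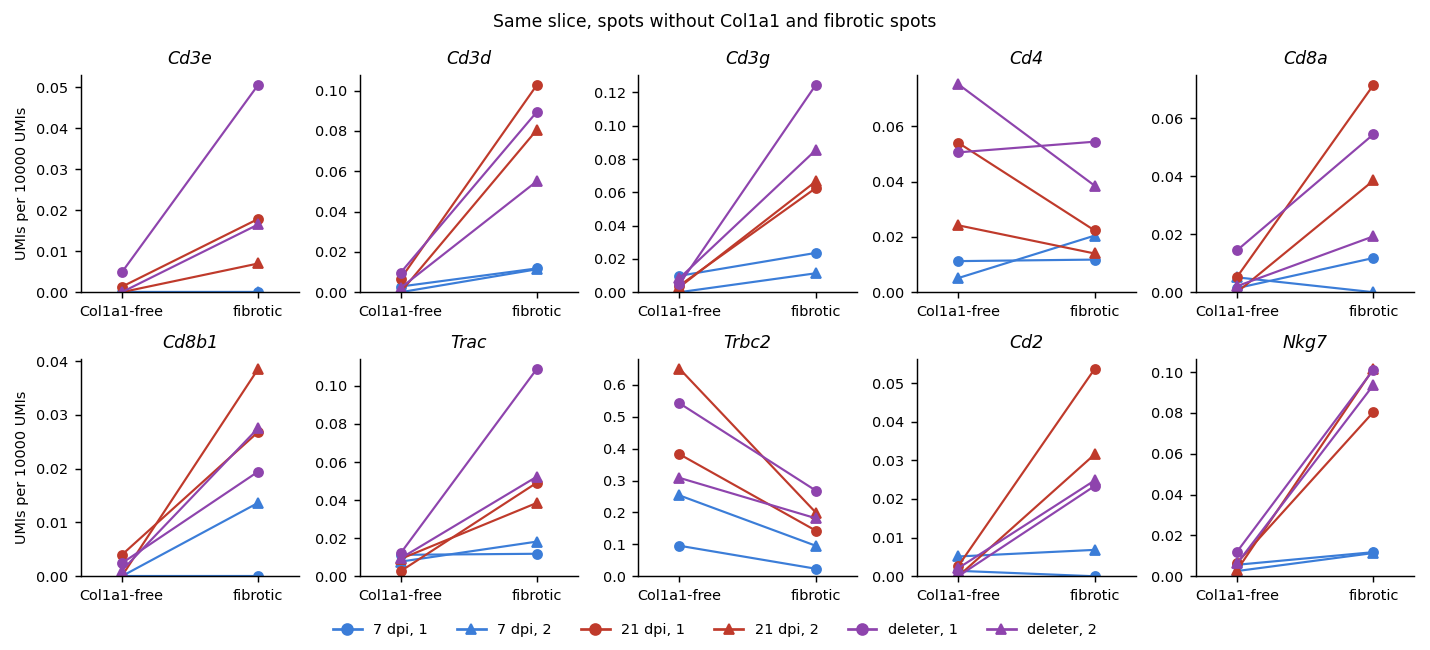
Level of each gene, in UMIs per 10000 UMIs, in Col1a1-free spots (left) and fibrotic spots (right) of the same slice; each line is 1 of the 6 slices at 7 and 21 dpi. Lines of Cd3d, Cd3g, Trac and Nkg7 rise in all 6 slices, lines of Trbc2 fall in all 6, and those of Cd4 go both ways.

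By group, none of the 10 genes was called higher in fibrotic spots at 7 dpi (background 17.4%; 3 of the 10 had an unadjusted p under 0.05, Cd3d and Cd8b1 above 0 and Trbc2 below, and DESeq2 called none higher). Trbc2 was called lower there (background 17.3%). In the WT slices at 21 dpi 7 were called higher (background 23.3%): Cd2, Cd3d, Cd3g, Cd8a, Cd8b1, Nkg7 and Trac, with log2 fold changes from 3.10 for Trac to 4.55 for Cd2. In the deleter slices 8 were called higher, the same 7 and Cd3e (background 23.7%), with log2 fold changes from 2.26 for Cd8a to 3.92 for Cd3e. Trbc2 was called lower in both groups, with -1.58 at 21 dpi (background 23.4%) and -0.93 in the deleter slices (background 22.3%). Without deleter slice 2, the count of 8 dropped to 5.

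That a gene passed at 21 dpi and not at 7 dpi does not show that the contrast changed, so the difference of the contrasts was tested. None of the 10 genes was called in either direction (edgeR, background 2.98% higher and 1.04% lower), with 2 of them at an unadjusted p under 0.05 and none called by DESeq2. The 2 were Cd2, with a difference of 4.26 ± 1.97 (SE, edgeR adjusted p = 0.29), and Cd4, with -2.32 ± 1.03 (SE, edgeR adjusted p = 0.26).

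The level inside fibrotic tissue was then compared between time points, over fibrotic spots only. Here 4 of the 10 genes were called higher in the WT slices at 21 dpi than at 7 dpi, where 2.36% of 15847 genes were called higher and 1.76% lower. None of the 10 was called lower. In UMIs per 10000 of fibrotic spots, Cd3d went from 0.0118 and 0.0114 at 7 dpi to 0.103 and 0.0806 at 21 dpi (log2 fold change 2.95 ± 0.55 SE, edgeR adjusted p = 0.0075). Nkg7 went from 0.0118 and 0.0114 to 0.0805 and 0.102 (log2 fold change 2.96 ± 0.51 SE, edgeR adjusted p = 0.0042). Cd3g went from 0.0236 and 0.0114 to 0.0626 and 0.0666 (log2 fold change 2.22 ± 0.55 SE, edgeR adjusted p = 0.038). Cd8a went from 0.0118 and 0 to 0.0715 and 0.0386 (log2 fold change 4.49 ± 1.12 SE, edgeR adjusted p = 0.039). For these 4 genes no slice at 7 dpi reached the lower of the slices at 21 dpi. They were picked by the call in this same comparison, and such separations were not counted over all genes, so nothing is read from it.

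These calls rest on few UMIs at 7 dpi. The fibrotic spots there held 6 Cd3d, 7 Cd3g, 6 Nkg7 and 1 Cd8a UMIs in 5240536, against 46, 33, 47 and 27 in 5090293 at 21 dpi. The ratio for Cd8a was 27.8 with an exact counting interval from 4.58 to 1138, and that for Nkg7 was 8.06 (3.44 to 23.1). The log2 fold changes stayed above 0 with every slice left out in turn, but the calls did not. Without slice 2 at 7 dpi, which held 83.8% of the UMIs of fibrotic spots at that time, none of the 4 remained called, and without slice 1 at 7 dpi Cd3d and Nkg7 did. Cd3g kept its call only without slice 1 at 21 dpi, and Cd8a lost it there too. DESeq2 called 2 of the 10. Of 15 alternatives, 13 kept the call of Cd3d, 13 that of Nkg7, 10 that of Cd8a and 6 that of Cd3g.

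Of the other genes, Cd2 had 0 and 3 UMIs in fibrotic spots at 7 dpi and 12 and 9 at 21 dpi (log2 fold change 2.80, edgeR adjusted p = 0.068). Cd3e had 0 and 0 against 4 and 2, a ratio of at least 2.06 if 3 UMIs are allowed at 7 dpi over both slices. Trac, Cd8b1 and Trbc2 had log2 fold changes of 1.34, 1.55 and 1.13 and were not past the threshold (edgeR adjusted p = 0.29, 0.30 and 0.14). Cd4 stood at 0.0118 and 0.0205 UMIs per 10000 at 7 dpi and at 0.0224 and 0.0140 at 21 dpi, so its slices overlapped (log2 fold change -0.07, edgeR adjusted p = 0.99). Trbc1 was called higher at 21 dpi (log2 fold change 3.06 ± 0.61 SE, edgeR adjusted p = 0.011).

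Promoter sequences were available from RefSeq (GRCm38.p6) for 5 of the 10 genes: Cd3e, Cd3d, Cd3g, Cd8a and Nkg7. Those of the 4 genes called higher at 21 dpi in fibrotic tissue are shown, since these moved together. Each runs from 250 bases before to 50 bases after the start that RefSeq gives for the gene, in the direction of transcription, with matches to 3 motifs of lymphocyte transcription factor families in capitals. The motifs, searched on both strands, were TGTGGT (RUNX), CAGGAA (ETS) and CAGNTG (E-box), which were found in 16.8%, 30.6% and 51.4% of all 32851 promoters of the table.
Cd3d, chr9:44981536-44981835, plus strand: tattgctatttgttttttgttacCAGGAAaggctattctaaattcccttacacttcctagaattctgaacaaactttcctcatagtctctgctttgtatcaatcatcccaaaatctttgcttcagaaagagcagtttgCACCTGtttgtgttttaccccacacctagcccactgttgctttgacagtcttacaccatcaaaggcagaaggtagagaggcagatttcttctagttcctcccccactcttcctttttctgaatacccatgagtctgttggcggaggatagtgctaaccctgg
Cd3g, chr9:44980382-44980681, minus strand: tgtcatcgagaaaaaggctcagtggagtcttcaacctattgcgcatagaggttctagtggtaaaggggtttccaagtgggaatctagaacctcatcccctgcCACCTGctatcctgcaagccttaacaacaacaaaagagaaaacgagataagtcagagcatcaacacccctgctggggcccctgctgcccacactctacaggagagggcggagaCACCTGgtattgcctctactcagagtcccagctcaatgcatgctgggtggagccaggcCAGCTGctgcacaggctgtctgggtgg
Cd8a, chr6:71373177-71373476, plus strand: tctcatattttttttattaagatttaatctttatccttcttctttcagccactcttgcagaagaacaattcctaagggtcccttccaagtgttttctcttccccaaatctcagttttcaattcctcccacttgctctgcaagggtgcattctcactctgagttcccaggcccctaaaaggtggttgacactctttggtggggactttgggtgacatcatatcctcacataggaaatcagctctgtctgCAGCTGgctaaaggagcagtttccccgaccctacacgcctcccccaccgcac
Nkg7, chr7:43436888-43437187, plus strand: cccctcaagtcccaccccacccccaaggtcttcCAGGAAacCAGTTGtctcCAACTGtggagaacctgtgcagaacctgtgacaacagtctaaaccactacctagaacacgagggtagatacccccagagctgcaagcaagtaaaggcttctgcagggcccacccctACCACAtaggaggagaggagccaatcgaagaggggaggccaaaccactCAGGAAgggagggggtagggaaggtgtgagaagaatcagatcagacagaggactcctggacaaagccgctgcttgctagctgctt
The E-box motif was present in all 4, with 3 matches in Cd3g and 2 in Nkg7. The RUNX motif was found in Nkg7 alone, and the ETS motif in Cd3d (1 match) and Nkg7 (2 matches). For Nkg7 that start lies downstream of the GENCODE start given above, and for the other 3 genes the starts coincide. The promoter of Cd3e, which was not called higher at 21 dpi in fibrotic tissue, had 1 E-box match, 1 ETS match and 0 RUNX matches. The E-box thus does not set the called genes apart. A match describes the letters of this window and shows no binding.

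The deleter slices at 21 dpi were compared with the WT slices of that time. None of the 10 genes was called over whole slices, where edgeR called 0% of genes higher and 0% lower (459 genes at an unadjusted p under 0.05, 1 of the 10 among them, and 8 genes called by DESeq2, none of the 10). None was called over fibrotic spots, where 0.00631% of genes were called higher and 0.0379% lower (951 genes at an unadjusted p under 0.05, 1 of the 10 among them, and 9 genes called by DESeq2, none of the 10). In fibrotic spots Cd4 was at 0.0545 and 0.0386 UMIs per 10000 in the deleter slices and 0.0224 and 0.0140 in the WT slices, which did not overlap (log2 fold change 1.36 ± 0.57 SE, edgeR adjusted p = 0.795). The slices did not overlap either for Cd3g, at 0.125 and 0.0854 in the deleter and 0.0626 and 0.0666 in the WT slices. The same held for Trac, at 0.109 and 0.0523 against 0.0492 and 0.0386, and for Cd2, at 0.0234 and 0.0248 against 0.0536 and 0.0315. The slices of the other genes overlapped, among them Cd3d, at 0.0895 and 0.0551 against 0.103 and 0.0806. How many of all genes had slices that did not overlap was not counted, so nothing is read from these separations. With 2 slices per group a missed threshold does not show that the groups were alike. The sum of the 8 genes was 0.572 and 0.375 in the deleter and 0.465 and 0.403 in the WT slices, which overlapped. The deleter slices held 1033 and 19 Xist UMIs, and the part of sex in these levels was not tested.

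With the 8 genes summed, 4.46% and 7.65% of fibrotic spots at 7 dpi held at least 1 UMI. The shares were 27.1% and 25.6% at 21 dpi, with exact 95% binomial intervals of 20.5% to 34.4% and 19.8% to 32.2%, and 32.1% and 26.6% in the deleter slices. In Col1a1-free spots the shares lay between 1.77% and 6.41% at 7 and 21 dpi, and were 1.03% at rest and 0.853% at 2 dpi. Depth differs between these spots, so each spot was thinned to 5000 UMIs and shallower ones were left out. The shares of fibrotic spots then were 7.41% and 2.99% at 7 dpi (58 and 57 spots left out), 13.2% and 16.4% at 21 dpi (19 and 14 left out) and 16.8% and 9.13% in the deleter slices (14 and 22 left out). Both WT slices at 21 dpi stayed above both slices at 7 dpi, and how often this held over all genes was not counted. In slice 1 at 7 dpi, however, 58 of the 112 fibrotic spots were left out, and the thinned shares are given without intervals.

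The 8 genes fell off with distance from fibrotic tissue at 21 dpi. In slice 1 at 21 dpi their summed level was 0.465 UMIs per 10000 in fibrotic spots, 0.210 in spots 1 step away, 0.0693 at 2 steps, 0.0730 at 3 to 5 steps and 0.0481 beyond. Slice 2 went from 0.403 to 0.118, 0.0794, 0.0227 and 0.0124. Both thus stood highest in fibrotic spots and lowest beyond 5 steps. In deleter slice 2 the level was 0.375 in fibrotic spots and 0.105 at 1 step. Deleter slice 1 differed, with 0.572 in fibrotic spots and 0.642 at 1 step, then 0.243 at 2 steps, so that its UMIs extended past the Col1a1 limit. At 7 dpi the levels were lower. Slice 2 went from 0.0728 in fibrotic spots to 0.0177, 0.00886, 0.0158 and 0.0186, and slice 1 from 0.0708 to 0.0322, 0.0547, 0.0428 and 0.0475. Slice 2 thus also dropped at 1 step, while slice 1 beyond 5 steps stood at the level of the whole slice, 0.0473. The order in WT slice 1 at 21 dpi depended on the Col1a1 limit, since with a minimum of 10 UMIs per 10000 it stood at 0.275 in fibrotic spots and 0.735 at 1 step, while slice 2 kept its order with 0.535 and 0.222.

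**Figure D3:**
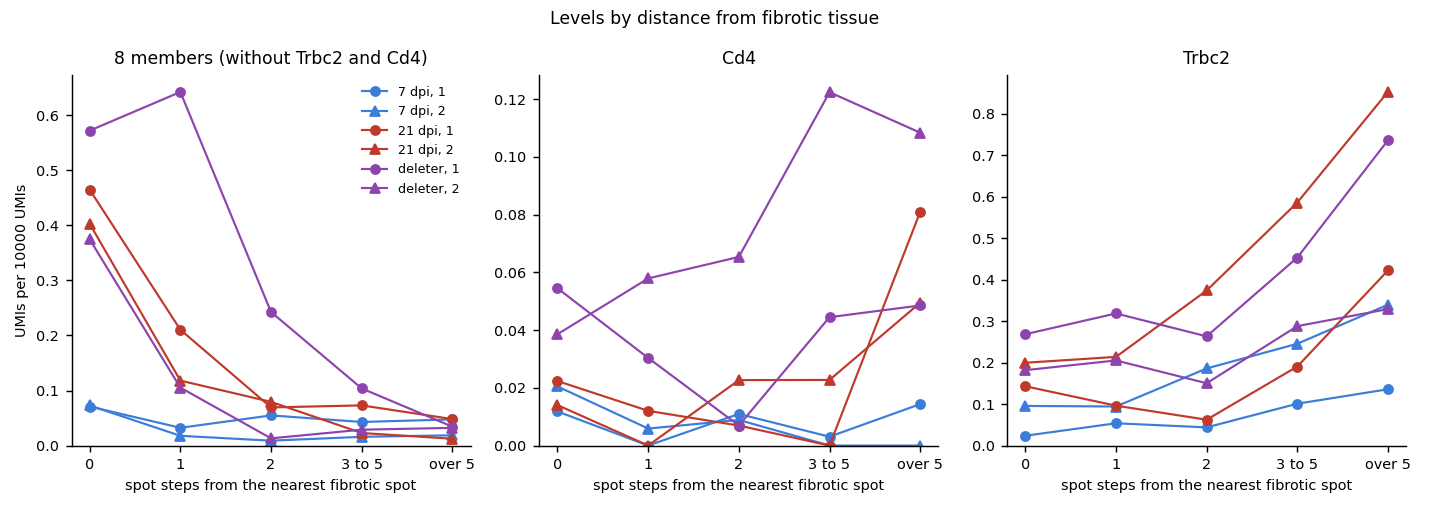
UMIs per 10000 against the distance from the nearest fibrotic spot, in steps of the spot grid, for the sum of the 8 genes without Trbc2 and Cd4, for Cd4 and for Trbc2; each line is 1 slice. The 8-gene sum falls from 0.465 and 0.403 at 0 steps in the WT slices at 21 dpi to 0.0481 and 0.0124 beyond 5 steps, and Trbc2 is highest beyond 5 steps in all 6 slices.

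**Figure D4:**
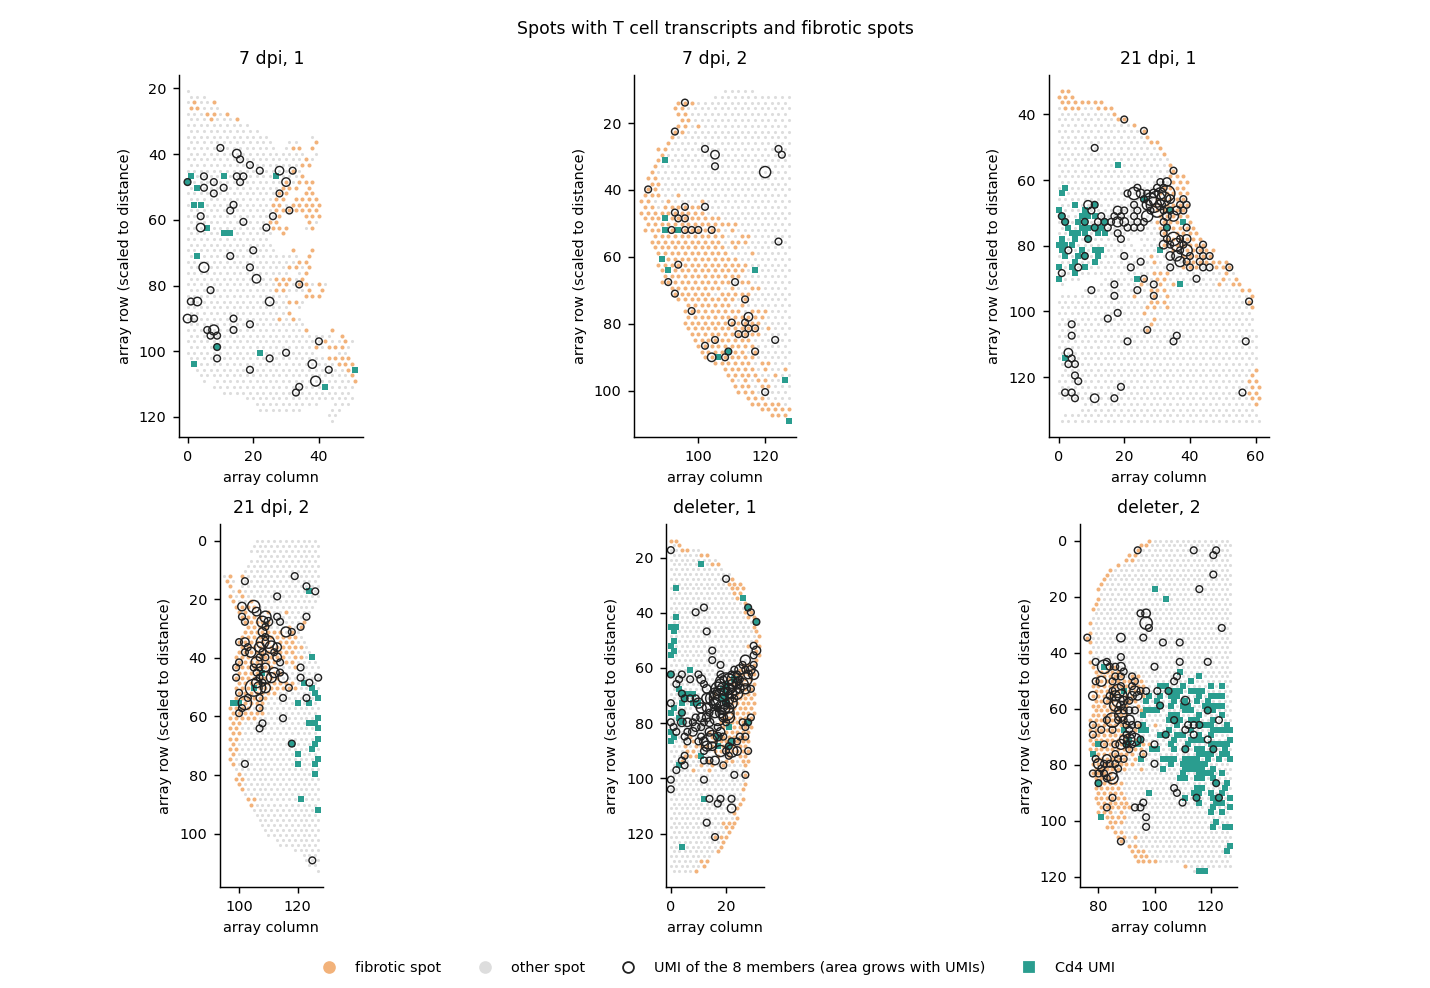
Maps of the 6 slices at 7 and 21 dpi on the array grid, with fibrotic spots in orange, spots with a UMI of the 8 genes without Trbc2 and Cd4 as circles whose area grows with the UMIs, and spots with a Cd4 UMI as squares. At 21 dpi the circles crowd in and beside the orange spots, while in deleter slice 2 most squares gather away from them, 186 of the 221 Cd4 UMIs lying in striatal spots.

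T cell transcripts shared spots at 21 dpi. Of all 9340 spots, 620 had a UMI of at least 1 of the 8 genes, 144 had at least 2 of the genes and 72 at least 3. By slice, the 144 spots with at least 2 were 0 at rest, 1 at 2 dpi and 9 and 2 at 7 dpi. There were 28 and 25 at 21 dpi and 56 and 23 in the deleter slices. Of the 144, 87 were fibrotic (60.4%). Of all spots 14.7% were fibrotic, a share that includes rest and 2 dpi with few fibrotic spots. In the WT slices at 21 dpi 57.1% and 88% of the co-detecting spots were fibrotic, against 12.7% and 24.5% of all spots. In the deleter slices the shares were 51.8% and 78.3%, against 21.2% and 17.2%. Slice 1 at 7 dpi showed no such excess, with 11.1% against 11.5%. In slice 2 at 7 dpi 1 of the 2 was fibrotic, where 41.4% of all spots were. The richest spot held 8 of the 8 genes and lay in deleter slice 1. Spots with at least 2 genes were deep, with a median of 21023 UMIs, so depth moves with co-detection and its part in these counts was not tested. A CD3 chain was found in 274 spots, and 54 of these also had a CD8 chain, while 19 also had Cd4 and 37 Trac. In fibrotic tissue, 139 spots had a CD3 chain, 32 of them with a CD8 chain and 8 with Cd4.

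Cd4 followed the striatum. Spots were ranked by the summed UMIs of 5 genes known from striatal neurons (Rgs9, Pde10a, Ppp1r1b, Adora2a and Drd2), a list drawn up after the maps of Cd4 had been seen. Spots with at least 16 UMIs per 10000 of these genes made up 7.38% of all spots with UMIs and held 321 of the 472 Cd4 UMIs (68.0%). They held 44 of 61 Cd4 UMIs at 2 dpi, 5 of 16 in slice 1 at 7 dpi, 55 of 72 and 15 of 31 at 21 dpi and 16 of 53 and 186 of 221 in the deleter slices. The slice at rest and slice 2 at 7 dpi had no such spot, and these had the lowest Cd4 counts, 7 and 11. The amount of such tissue in a slice moved with its Cd4 level, and its part in the whole-slice values was not tested.

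Outside those spots Cd4 was sparse. Per 10000 UMIs it was at 0.0118 in fibrotic and 0.00435 in Col1a1-free spots of slice 1 at 7 dpi, and 0.0205 and 0.00512 in slice 2. At 21 dpi it was at 0.0224 against 0.0101 in slice 1 and 0.0140 against 0.0185 in slice 2. The deleter slices had 0.0545 against 0.0306 and 0.0361 against 0.00899. Fibrotic spots were thus higher in 5 of the 6 slices once striatal spots were left out, on 1 to 14 Cd4 UMIs per class. No test was run on this, as the spots were chosen with Cd4 in view.

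Trbc2 followed the deep cortex. It was set against the summed UMIs of 5 genes of layer 6 neurons (Rprm, Foxp2, Syt6, Tbr1 and Hs3st4), again a list drawn up after its values had been seen. In the slice at rest Trbc2 stood at 0.210 UMIs per 10000 in spots with under 1 UMI per 10000 of these genes, at 0.229 from 1 to 2, at 0.521 from 2 to 4 and at 1.10 from 4 up. Over all slices the levels were 0.140, 0.176, 0.315 and 0.786. The spots from 4 up were 17.7% of the spots and held 48.5% of all Trbc2 UMIs. In each of the 8 slices the highest of the 4 classes had the highest Trbc2 level, from 0.299 in slice 1 at 7 dpi to 1.18 in slice 2 at 21 dpi. Trbc1 ran the other way, with 68.8% of its UMIs in spots with under 1 UMI per 10000 of the layer 6 genes.

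Away from layer 6, in spots with under 1 UMI per 10000 of its genes, the Trbc2 levels of fibrotic and Col1a1-free spots had no common order. They were 0.0317 and 0.0264 in slice 1 at 7 dpi, 0.0983 and 0.164 in slice 2, 0.130 and 0.224 in slice 1 at 21 dpi, 0.205 and 0.230 in slice 2, and 0.323 against 0.297 and 0.170 against 0.119 in the deleter slices. Fibrotic spots were the lower class in 3 slices and the higher in 3. For all 10 genes, fibrotic over Col1a1-free spots gave ratios of 0.763 and 0.677 at 7 dpi, 1.34 and 0.893 at 21 dpi and 1.37 and 1.43 in the deleter slices. For the 8 genes without Trbc2 and Cd4, the ratios were 2.19, 3.55, 14.1, 26.6, 9.49 and 11.9.

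**Figure D5:**
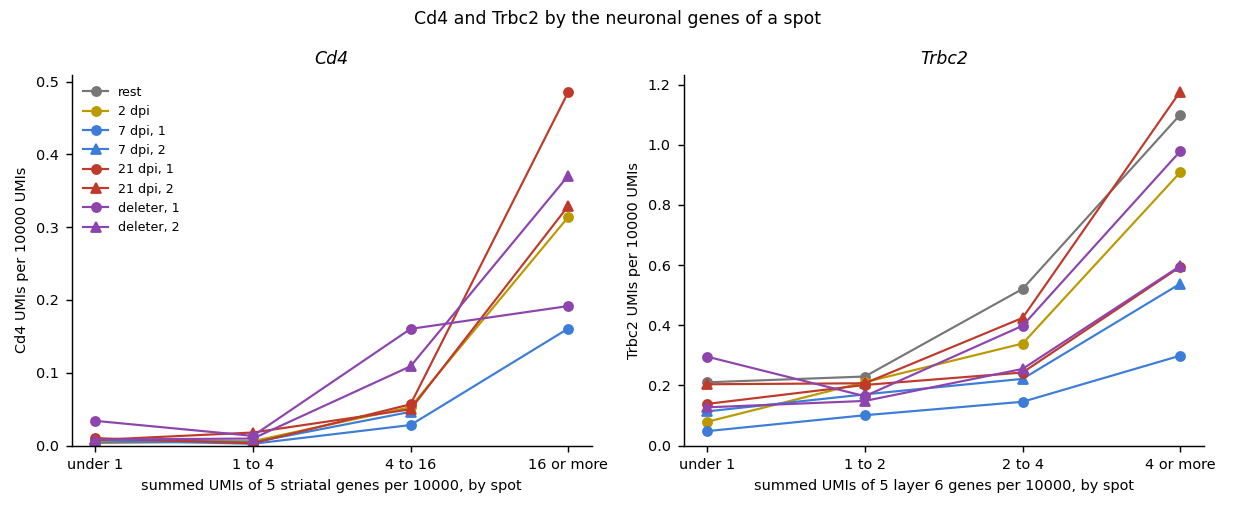
Cd4 against the summed UMIs per 10000 of 5 striatal genes (left) and Trbc2 against those of 5 layer 6 genes (right), with spots grouped into 4 classes and 1 line per slice. Classes of at least 10 spots are drawn. Cd4 reaches 0.161 to 0.486 UMIs per 10000 in the highest class of the 6 slices that have one and is higher there than in their other classes, closest in deleter slice 1 with 0.192 against 0.160, and Trbc2 is highest in the top class of all 8 slices.

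Because Trbc1 and Trbc2 behaved so differently, the likeness of their transcripts matters for the counting. Both lie on the plus strand of chromosome 6, Trbc2 at chr6:41546730-41548352. Their first exons, of 375 bases, differed at 1 base (99.7% identity), while exon 3 differed at 15 of 107 bases (86.0% identity). The last exons, of 237 and 192 bases, shared 0 runs of 20 bases. Exon 3 of each is shown, read from the GRCm38 genome, with the differing bases in capitals.
Trbc1, chr6:41539229-41539335, plus strand: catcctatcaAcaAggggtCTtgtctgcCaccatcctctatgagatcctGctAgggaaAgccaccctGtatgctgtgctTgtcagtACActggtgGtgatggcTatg
Trbc2, chr6:41547772-41547878, plus strand: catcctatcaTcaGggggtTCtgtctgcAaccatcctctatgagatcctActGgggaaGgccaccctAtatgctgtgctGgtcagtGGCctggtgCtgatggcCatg
Visium reads start near the 3′ end of a transcript, where the genes differ. A read that fell in the first exon could not be told from one of the sister gene, and how such reads were counted is not given in the sources used here.

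The wider set of lymphocyte genes was taken from 3 lists, with 62 genes in all. Of the other T cell genes, 27 of 31 could be tested between fibrotic and Col1a1-free spots, and 16 were called higher and 1 lower. Of the cytotoxic effector genes, 12 of 15 were tested and 7 called higher. Of the helper, regulatory and memory genes, 13 of 16 were tested and 11 called higher. Shares in all 3 lists were above the 29.8% of all genes. At 7 dpi 7 of 27, 3 of 12 and 3 of 13 were called higher, where 17.4% of all genes were, so that all 3 lists lay near that share. At 21 dpi 15, 6 and 8 were called higher, where 23.3% of all genes were. The difference of the contrasts between 21 and 7 dpi was called higher for 3 of 27, Cd28, Fyb and Lcp2, and for 0 of 12 and 0 of 13. Of all genes 2.98% were called higher there.

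Of the 40 list genes past the threshold in any comparison, the 8 with most UMIs were followed. Il7r, the interleukin 7 receptor chain that keeps resting T cells alive, had the steepest contrast, with 18, 111, 106, 68, 125 and 79 UMIs in fibrotic spots and 15, 3, 6, 1, 2 and 4 in Col1a1-free spots (log2 fold change 5.29 ± 0.23 SE, edgeR adjusted p = 8.95e-14). Ccl5, a chemokine that attracts T cells, had 36, 219, 116, 106, 135 and 119 against 84, 13, 30, 5, 17 and 18 (log2 fold change 3.52 ± 0.25 SE, edgeR adjusted p = 3.0e-06). Neither was past the threshold between 21 and 7 dpi within fibrotic spots. The log2 fold changes were 0.54 ± 0.51 (SE, edgeR adjusted p = 0.68) for Il7r and -0.10 ± 0.24 (SE, edgeR adjusted p = 0.90) for Ccl5. Fyb and Lcp2, adaptor proteins of T cell receptor signalling that myeloid cells use too, had log2 fold changes of 2.42 and 2.59 in fibrotic spots. Tcf7, a transcription factor of naive and memory T cells, had 1.50, and Lag3, an inhibitory receptor, had 1.35. All 4 were past the threshold. Over all slices Lag3 gave 1470, Il7r 694 and Tcf7 503 UMIs, against 169 of Cd3d. Which cells of a spot held them was not tested. Zap70, a kinase that binds the CD3 chains, passed in the deleter slices alone (1.80, edgeR adjusted p = 0.026). Bcl11b, which cortical and striatal neurons express as well as T cells, was the 1 gene called lower, by -2.07.

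The late comparison was made for the lists too. Between 21 and 7 dpi within fibrotic spots, where 2.36% of all genes were called higher, Trbc1 and the T cell surface gene Ms4a4b were called higher in the first list and Il2rb, a receptor chain for interleukins 2 and 15, in the last. Of the 11 cytotoxic genes tested edgeR called none, with 4 at an unadjusted p under 0.05, and DESeq2 called none. The unadjusted counts were 8 of 24 in the first list and 4 of 12 in the last. Log2 fold changes were above 0 for 18 of 24, 8 of 11 and 11 of 12 genes, with medians of 1.05, 1.55 and 1.04 against 0.01 over all genes and 2.51 over the 10 genes. Gzma, a granule protease, stood at 0.0472 and 0.0683 UMIs per 10000 in fibrotic spots at 7 dpi and at 0.0447 and 0.0456 at 21 dpi (log2 fold change -0.47 ± 0.53 SE, edgeR adjusted p = 0.73). Gzmb, another granule protease, had 0 and 3 UMIs there at 7 dpi and 2 and 0 at 21 dpi. Nkg7 was thus called higher late while these proteases were not, and the difference between the genes was not tested.

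Markers of other cell types were summed over the same spots. In fibrotic spots the 7 B and plasma cell markers used summed to 0.331 and 0.296 UMIs per 10000 at 7 dpi, 9.28 and 13.2 at 21 dpi, and 12.9 and 35.6 in the deleter slices, with Cd79a and Mzb1 at 0 in slice 1 at 7 dpi, Jchain in slice 2 at 7 dpi and Ms4a1 in slice 2 at 21 dpi. Over all slices and spots Igkc gave 23796 UMIs, against 5692 of Ighm and 5082 of Jchain, so the sum is not a common level of the 7. Of 6 tested between fibrotic and Col1a1-free spots, 3 were called higher, Cd79a, Cd79b and Mzb1, where 29.8% of all genes were. Ighm was called lower, where 30.3% were, and also at 7 dpi (background 17.3%) and at 21 dpi in WT slices (background 23.4%). At 7 dpi Cd79b was called higher (background 17.4%). In WT slices at 21 dpi 4 were, Cd79b, Igkc, Jchain and Mzb1 (background 23.3%). In deleter slices 5 were, the same 4 and Cd79a (background 23.7%), and none was called lower (background 22.3%). Between 21 and 7 dpi within fibrotic spots, Igkc and Mzb1 were called higher, where 2.36% of all genes were. Jchain, which links secreted antibodies, stood at 1.64 in fibrotic spots and 0.349 at 1 step in WT slice 1 at 21 dpi, at 2.34 and 0.170 in WT slice 2, at 2.33 and 1.25 in deleter slice 1 and at 6.50 and 0.863 in deleter slice 2. The slice in which the 8 genes extended past the Col1a1 limit was thus also that with the highest Jchain level at 1 step. The 6 natural killer cell markers summed to 0 and 0.0250 UMIs per 10000 at 7 dpi, 0.0805 and 0.0280 at 21 dpi and 0.0506 and 0.0964 in the deleter slices, on 0 to 35 UMIs. All 4 slices at 21 dpi lay above both at 7 dpi, by little in WT slice 2, at 0.0280 against 0.0250. How many of all genes separated in this way was not counted, so nothing is read from it. Within fibrotic spots, none of the 3 genes of this list tested between 21 and 7 dpi was called. The receptor gene Ncr1 was at 0 in 4 of the 6 slices. Of the 4 genes of this list tested, 2 were called higher in fibrotic than in Col1a1-free spots, Klra4 and Klre1, where 29.8% of all genes were. The 10 macrophage and microglia markers summed to 85.1 and 97.3 UMIs per 10000 at 7 dpi, to 118 and 114 in the WT slices at 21 dpi and to 99.8 and 95.2 in the deleter slices. Between 21 and 7 dpi 2 of these 10 were called higher, Lyz2 and Mrc1, and 1 lower, Cd68, with a median log2 fold change of -0.30. The shares of all genes were 2.36% higher and 1.76% lower. The 3 neutrophil markers ranged from 0.460 to 4.16 and the 7 dendritic cell markers from 0.590 to 1.51. The part of these cells in the levels of Nkg7, Cd4 and Ccl5 was not tested.

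Chemokines that attract T cells were higher in fibrotic spots too, with 6 of 7 called higher, where 29.8% of all genes were, and Ccl21a as the exception. They summed to 3.20 and 4.67 UMIs per 10000 at 7 dpi, 8.51 and 7.55 at 21 dpi and 7.01 and 7.37 in the deleter slices. In all 4 slices at 21 dpi most of that sum was Cxcl12. Cxcl12 alone was called higher at 21 than at 7 dpi within fibrotic spots, where 2.36% of all genes were. It stood at 1.24 and 2.01 UMIs per 10000 in fibrotic spots at 7 dpi (105 and 882 UMIs) and at 5.12 and 4.77 at 21 dpi (1145 and 1361 UMIs).

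Across the 16 values of 8 slices and 2 spot classes, the genes outside all lists most like the sum of the 10 genes were Nub1, Zfp937, Pparg, Tle6 and Ighg2c, with Spearman's rho from 0.868 to 0.908 among 15562 genes. That sum is mostly Trbc2. For the 8 genes without Trbc2 and Cd4, the leading genes were Gimap4, Ptpn22, Fndc1, Sctr and Cdc42bpg, with rho from 0.956 to 0.985. Gimap4 and Ptpn22 are known from lymphocytes, while Fndc1 is a matrix gene. The sum of these 8 itself had rho of 0.97 with Cd3d, which is part of it, 0.49 with Cd4 and -0.02 with Trbc2. Over the 12 values without rest and 2 dpi, whose fibrotic spots held no UMI of these genes, C1s1 and Tbx15 led for the 8 genes, Gimap4 and Ptpn22 stayed among the first 5 and Fndc1, Sctr and Cdc42bpg did not. For all 10 genes Nub1 and Zfp937 stayed, and Mical3 led. The points share slices and depth, so these values are descriptions, and the 8-gene sum and the 12 values were chosen after the data were seen.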

How the data were processed

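Spatial transcriptomes of 8 brain slices on 4 capture areas were used. The authors aligned the reads to mm10 with Space Ranger 2.0.0 and deposited, per area, UMI counts by gene and spot, which were used as raw counts. Spot positions, deposited as other numbers, gave the 2 connected tissue pieces of an area. All tissue spots were kept, the clustering by the authors was not repeated, and no doublets apply to spots. Slices held 11332780 to 23677298 UMIs. The 10 genes and all gene lists were chosen with earlier results of these data known.

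Counts were summed by slice and spot class and tested over all genes with at least 10 UMIs over all sums, with edgeR 4.0.16 (TMM, quasi-likelihood, Benjamini-Hochberg threshold 0.05; limma 3.58.1, R 4.3.3), with the slice as a block where classes of a slice were compared. DESeq2 1.42.0, filters, library-size scaling, other Col1a1 minimums (2 and 10), depth limits, thinning to 2000 UMIs and leaving out slices were alternatives. Two-sided p-values are given. Intervals are exact at 95% and cover counting error only, and a count of 0 allows up to 3 UMIs. Scripts were tested on simulated data. Python 3.11.15, numpy 2.4.6, scipy 1.17.1, pandas 2.3.3 and matplotlib 3.10.9 were used. All 10 genes are named. Of the 62 other lymphocyte genes, the 8 with most UMIs among those past the threshold in any comparison are named, and any other was chosen after its values were seen. The 5 genes most like the summed level by Spearman's rho are named, from genes with at least 50 UMIs. The B and plasma cell marker list and the striatal gene list were each shortened by 1 gene that is not reported here, and their values were computed without it.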

Additional observations from a re-analysis of the deposited data

Results flagged for a closer look

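Cd4 lay on different sides of equality at the time points. Fibrotic over Col1a1-free spots gave ratios of UMIs per 10000 of 1.05 and 3.999 in the slices at 7 dpi and of 0.413 and 0.579 in the WT slices at 21 dpi. The first of these rests on 1 fibrotic UMI (exact counting interval 0.0236 to 7.82), and outside striatal spots slice 1 at 21 dpi was higher in fibrotic spots, with 0.0224 against 0.0101. The difference of the contrasts was not past the threshold (log2 -2.32, edgeR adjusted p = 0.26). The sum of all 10 genes gave ratios of 0.763 and 0.677 at 7 dpi and of 1.37 and 1.43 in the deleter slices, and this difference was not tested.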

How the results depend on the processing

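Of 1265 values recomputed under alternatives, 441 were of calls. None of the calls changed sign, 38 lost their call and 11 values gained one. Of the 29 values called in the main setting, 13 kept their call under every alternative. At 7 dpi the count of genes called higher in fibrotic spots was 0, and 1 with a Col1a1 minimum of 2, with a minimum of 10 and with no slice block. The count called lower was 1 at 7 dpi, at 21 dpi and in the deleter slices, and 0 in each with no slice block. Leaving out 1 slice gave 0 to 1 called lower at 7 dpi, 5 to 8 called higher in the deleter slices, where DESeq2 gave 5, and 0 to 4 called higher at 21 against 7 dpi in fibrotic spots, where DESeq2 gave 2 and a Col1a1 minimum of 2 gave 0. Thinned to 2000 in place of 5000 UMIs, the shares of fibrotic spots with a UMI of the 8 genes were 0% in slice 1 at 7 dpi, 8.24% and 8.87% at 21 dpi and 6.28% and 4.76% in the deleter slices. With a Col1a1 minimum of 10, their level was 0.0871 UMIs per 10000 at 0 steps and 0.0361 at 1 step at 7 dpi, and 0.423 at 0 steps and 0.458 at 1 step at 21 dpi, where the order turned. The cause of these changes was not tested. Likeness to the 8-gene sum was added after seeing the data. The few UMIs of the 10 genes at 7 dpi limit what can be told there.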
